A study of Mus musculus with 4 samples.

Results

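The cytosolic ribosomal proteins were measured here as 85 genes of 52550 in the table: 52 of the large subunit, named Rpl, and 33 of the small subunit, named Rps or Rpsa. They were chosen by name among protein-coding genes, as Rpl or Rps followed by a digit, Rplp0 to Rplp2, or Rpsa. Of 102 protein-coding genes with such names, 10 kinases, Rps19bp1 and 6 genes whose names mark them as pseudogenes were left out. The members lie on 19 chromosomes.

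The cells were macrophages grown from mouse bone marrow with M-CSF, the growth factor of the macrophage lineage, at 20 ng/mL for 7 days. They were OGT knockout (KO) or wild type (WT), and were collected 24 h after IL-4 at 20 ng/mL or at 0 h. That gives 4 groups of 1 library each: KO at 24 h, WT at 24 h, KO at 0 h and WT at 0 h. The treatment tag names IL-4 for all 4 samples, and the 0 h cells were read from their time as cells without it. The labels name no untreated 24 h culture, so the effects of IL-4 and of time in culture cannot be told apart. Genotype and the single culture and library of each group cannot be told apart either. The sources used here do not state the deleted part of Ogt, any Cre driver or the number of animals.

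The ribosome makes all cytosolic proteins, and its large and small subunits each carry one copy of most of their proteins on a scaffold of ribosomal RNA. Most of its protein mRNAs begin with a run of pyrimidines, the 5′ terminal oligopyrimidine (TOP) motif, through which mTOR signalling and LARP1 control their translation and stability as a group. OGT is the enzyme that places single O-linked sugars on nuclear and cytosolic proteins, and IL-4 drives macrophages into the alternatively activated (M2) state.

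Ogt itself had 14.5 FPKM in KO cells at 24 h, 29.8 in WT cells at 24 h, 14.2 in KO cells at 0 h and 27.4 in WT cells at 0 h. FPKM is the number of fragments scaled to the length of the transcript and the size of the library. The KO value was lower at both times and above 0, and whether these reads lie outside the deleted part was not tested. The 8 macrophage markers summed to 6408, 6349, 15594 and 18616 FPKM in the same order of libraries. The 11 neutrophil markers summed to 735 FPKM in KO cells at 24 h and 1095 in WT cells at 24 h, and to 2184 in KO cells at 0 h and 3374 in WT cells at 0 h. The other lists were low: T cell and erythroid markers summed to at most 1.35 FPKM, B cell markers to at most 13.9, and fibroblast, basophil and mast cell markers to at most 12.9 and 7.53. Monocyte markers summed to 21.5, 31.7, 40.02 and 58.7 FPKM and megakaryocyte markers to 29.0, 49.0, 48.0 and 100.6, again lower in KO at each time. In bulk RNA, fewer cells of a type and less RNA per cell cannot be told apart. From the step size of low values, kept members were estimated to have a median of 5097 to 6658 fragments in each library, and the lowest 277 to 347. The estimate multiplies FPKM by all annotated exon bases of a gene, such as 6270 for Rps15a and 499 for Rplp1. It is too high where the length behind the FPKM was shorter, and the sources used here do not give that length. The spread between cultures was not measured, and no p-value or error is given.

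Together the members took 4.27% of all FPKM in KO cells at 24 h, 5.08% in WT cells at 24 h, 4.22% in KO cells at 0 h and 4.72% in WT cells at 0 h. Their summed level was 15091 FPKM in KO cells at 24 h, against 17915 in WT cells. At 0 h it was 14347 FPKM in KO cells, against 15993 in WT cells. WT cells at 24 h thus held the highest sum and KO cells at 0 h the lowest, and the KO sum was 84.2% of WT at 24 h and 89.7% at 0 h.

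Both subunits took part in similar proportion. The large subunit summed to 9133 FPKM in KO cells at 24 h, 10921 in WT cells at 24 h, 8583 in KO cells at 0 h and 9613 in WT cells at 0 h. The small subunit summed to 5958, 6994, 5764 and 6380 FPKM in the same libraries. The ratio of the large to the small sum was 1.53, 1.56, 1.49 and 1.51 in that order, so the balance of the subunits differed less between libraries than either sum did.

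Of the 85 members, 82 reached 1 FPKM in at least 1 library, 49 of the large and 33 of the small subunit. The other 3 were tissue-restricted paralogs of the large subunit. Rpl10l, a testis form of Rpl10, was listed at 0 in all 4 libraries. Rpl3l, the form of Rpl3 found in heart and skeletal muscle, had at most 0.06 FPKM. Rpl39l, the testis form of Rpl39, had 0.34 FPKM in KO cells at 24 h, 0.06 in WT cells at 24 h, 0.41 in KO cells at 0 h and 0.79 in WT cells at 0 h.

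The order of the kept members by level was much the same in every library (Spearman rho across the 82 genes between 0.951 and 0.987 for pairs of libraries, a description over genes that share libraries). Rplp1, an acidic protein of the stalk that recruits translation factors, was the highest at 983 FPKM in KO cells at 24 h, 1130 in WT cells at 24 h, 765 in KO cells at 0 h and 953 in WT cells at 0 h. The lowest kept member was Rpl22l1, the paralog of Rpl22, with 7.98, 8.15, 6.88 and 7.14 FPKM. The median member had 144 FPKM in KO cells at 24 h, 160 in WT cells at 24 h, 139 in KO cells at 0 h and 145 in WT cells at 0 h.

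**Figure D1:**
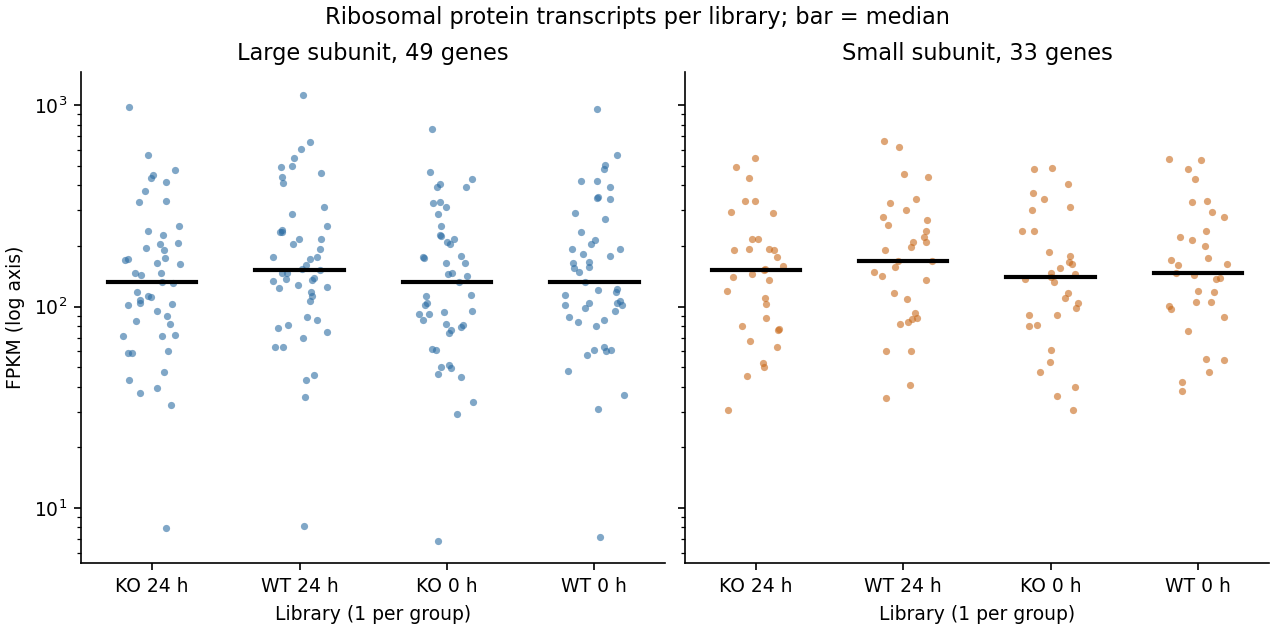
FPKM on a log axis of the 49 large subunit genes (left) and 33 small subunit genes (right) kept, with 1 point per gene and library and a bar at the median of the subunit. The 4 distributions overlap almost wholly, with large subunit medians of 133 in KO at 24 h, 151 in WT at 24 h, 132 in KO at 0 h and 133 in WT at 0 h.

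At 24 h, 75 of the 82 kept members were lower in KO cells than in WT cells, where 58.6% of all genes kept were lower. The median difference, as log2 of the ratio of FPKM + 1, was -0.27, and the quartiles were -0.33 and -0.16. A difference of at least 1.2-fold lower was reached by 42 members, against 16.4% of all genes, and 1.2-fold higher by 1 member, against 10.9%. On this scale no member reached 2-fold in either direction, where 0.832% of all genes did so higher and 0.628% lower. Rpl29, at 37.3 FPKM in KO cells and 74.7 in WT cells, was 2-fold lower in FPKM itself and lay just under that mark with the pseudocount of 1 added (-0.98). The shift was thus small per gene and shared by nearly the whole family. The large subunit had a median of -0.29 with 45 of 49 lower, and the small subunit -0.25 with 30 of 33 lower.

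The genes most like the family in level or length did not have that median. Over all genes the median difference was -0.05. Over 324 other protein-coding genes at a mean of 100 FPKM or more it was 0.00, with 50% lower. Over 150 other abundant genes with short exons, of 1200 bases or fewer in total, it was -0.03, with 57.3% lower. Some values that moved with genotype at 24 h stand beside this. The KO library at 24 h had more of several short RNAs, such as Gm23935 at 205 FPKM, against 57.7 in WT cells at 24 h, 69.9 in KO cells at 0 h and 63.2 in WT cells at 0 h. Of 10 kept neutrophil markers 9 were lower in KO at both times, against 42.9% of all genes. Their part in the result was not tested.

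At 0 h the same direction was seen with a smaller median of -0.13, and 64 of 82 members were lower in KO cells, against 59.5% of all genes. Here 23 members were at least 1.2-fold lower, against 18.3% of all genes, and 3 (Rpl18 and Rpl41 among them) were 1.2-fold higher, against 10.5%. Rpl29 alone was more than 2-fold lower, as were 0.871% of all genes, and no member was 2-fold higher, as were 0.88%. The large subunit had a median of -0.11 with 39 of 49 lower and the small subunit -0.15 with 25 of 33 lower. The median over all genes was again -0.05, and over 322 other genes at 100 FPKM or more it was 0.01. Mitochondrially encoded genes took 6.93% of FPKM in KO cells at 0 h and 5.87% in WT cells at 0 h, and 8.64% and 8.67% in KO and WT cells at 24 h, and the part of this in the result was not tested. With the libraries rescaled by their median ratio, the family median was -0.21 at 24 h and -0.05 at 0 h, with 71 and 53 members lower, against 48.2% and 47.7% of all genes.

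**Figure D2:**
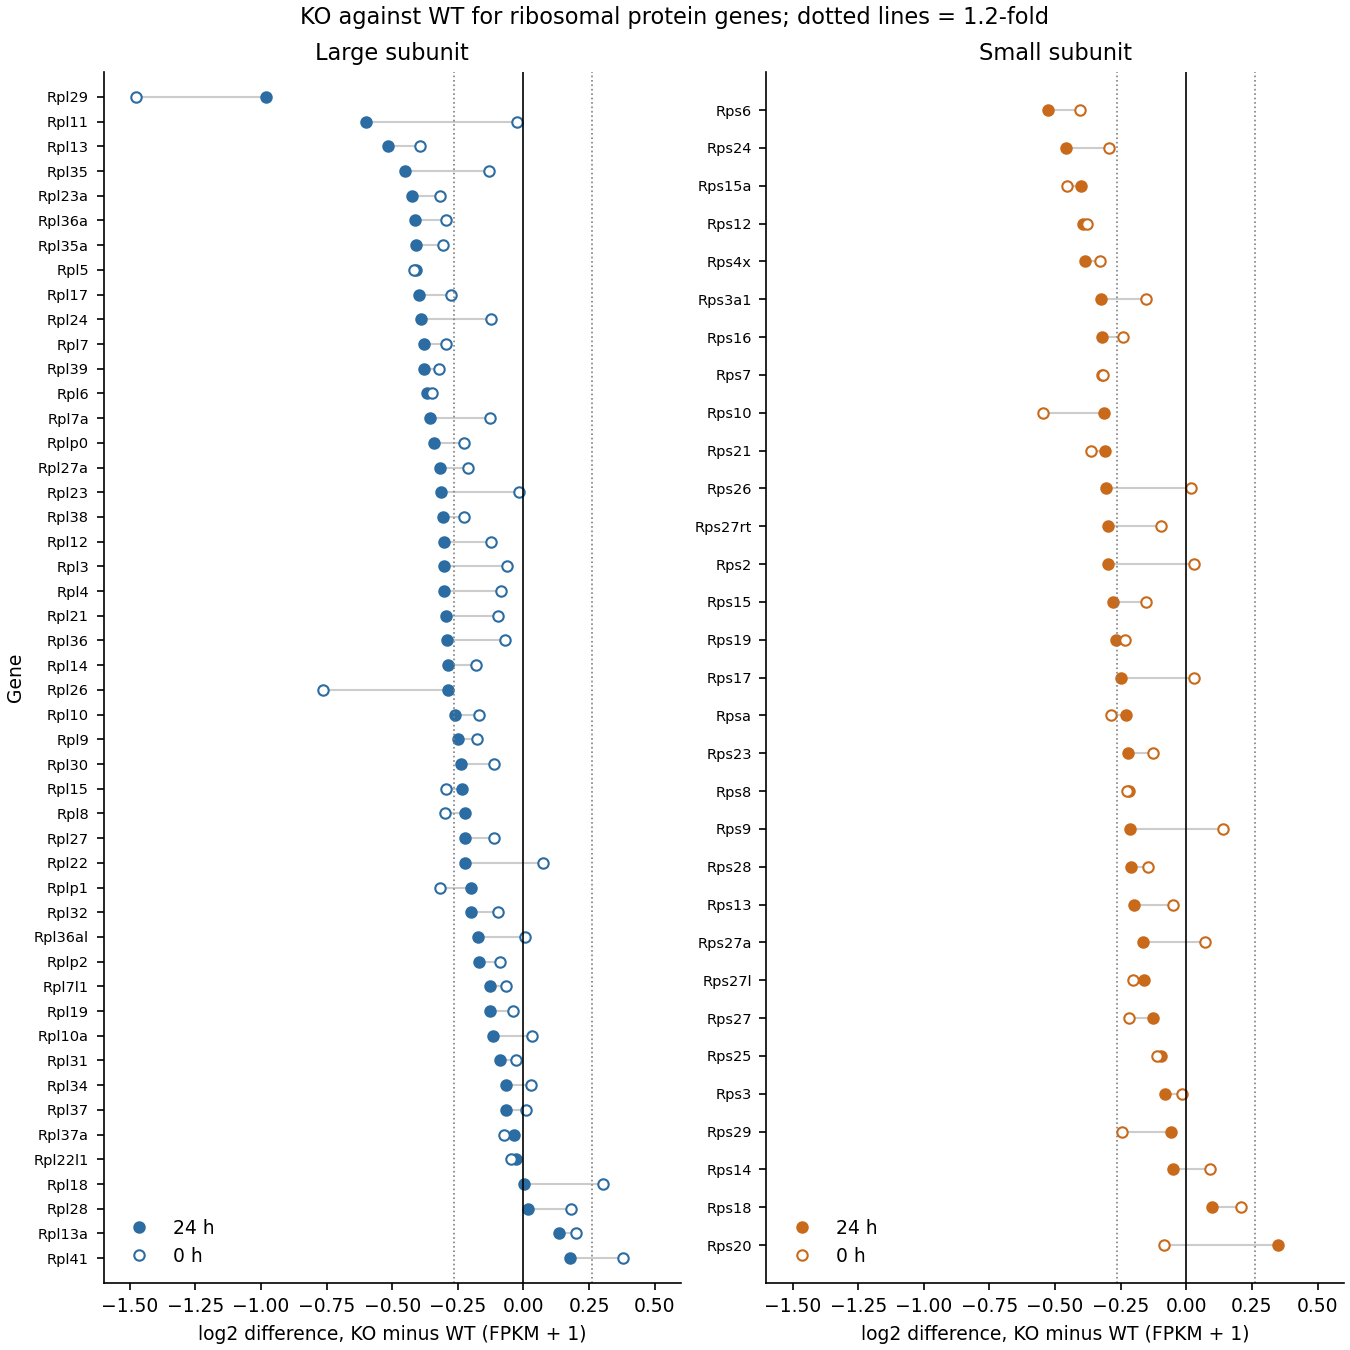
Log2 difference of FPKM + 1, KO minus WT, for kept genes at 24 h (filled) and 0 h (open), large subunit left and small subunit right, ordered by the 24 h value, with dotted lines at 1.2-fold. Of all 82 kept genes, a few of which are not drawn, 75 are below 0 at 24 h and 64 at 0 h, and Rpl29 is lowest at both times.

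The comparisons at 24 h and 0 h have no library in common, so each member could be set against itself. Lower in KO at both times were 63 of 82 members, against 42.9% of all genes. Higher at both times were 6, against 25.1%, with Rpl13a, Rpl18, Rpl28, Rpl41 and Rps18 among them. Lower by 1.2-fold at both times were 19 members, 11 large and 8 small, against 7.27% of all genes. Across the 82 members, Pearson's r between the 24 h and the 0 h difference was 0.68 and Spearman's rho 0.66. Over all 12002 genes r was 0.35. Without Rpl29 the members' r was 0.57, and without Rpl26 and Rpl29 it was 0.60. Genes are not independent replicates, and these correlations are descriptions.

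**Figure D3:**
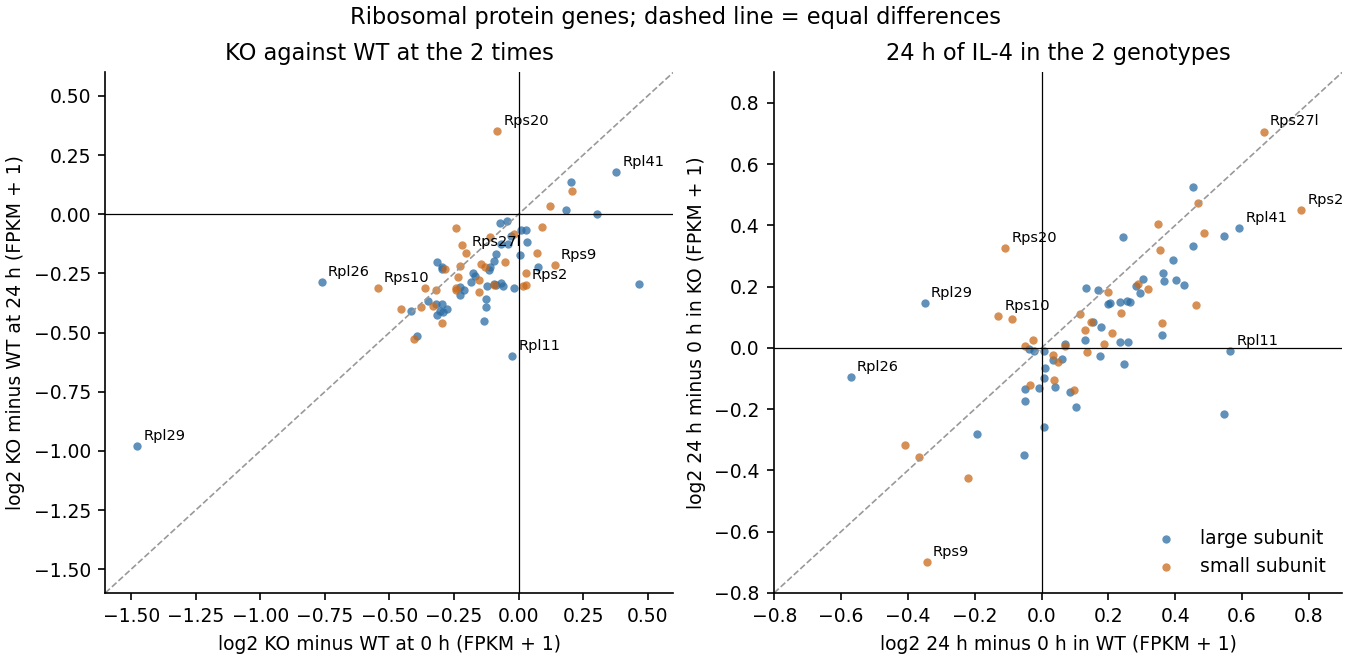
Each point is 1 kept gene: on the left its KO minus WT log2 difference at 24 h (vertical) and at 0 h (horizontal), on the right its 24 h minus 0 h difference in KO (vertical) and in WT (horizontal), with a dashed line of equal differences. On the left 63 of 82 genes are below 0 on both axes, and on the right Rpl11 and Rpl26 lie far from the line.

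Of the highest members of the large subunit, Rplp0, Rplp1, Rpl8, Rpl17 and Rpl19 were each lower in KO at both times. Rplp0, the base of the stalk, had 479 FPKM in KO cells at 24 h and 607 in WT cells at 24 h, and 431 in KO cells at 0 h and 505 in WT cells at 0 h, a log2 difference of -0.34 at 24 h and -0.23 at 0 h. Rplp1 differed by -0.20 at 24 h and -0.32 at 0 h, and the other stalk protein, Rplp2, by -0.17 and -0.09. Rpl8, which lies beside the peptidyl transferase centre, had 564 and 659 FPKM in KO and WT cells at 24 h and 391 and 481 FPKM in KO and WT cells at 0 h. Rpl17, which lines the exit tunnel, differed by -0.40 at 24 h and -0.28 at 0 h. Rpl19 differed less, by -0.13 at 24 h and -0.04 at 0 h.

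Among the highest members of the small subunit, Rps15, Rps3a1, Rps29 and Rps4x differed in the same direction. Rps15, near the decoding centre, had 548 FPKM in KO cells at 24 h, 666 in WT cells at 24 h, 480 in KO cells at 0 h and 534 in WT cells at 0 h. Rps3a1 had 493, 619, 488 and 543 FPKM in those libraries, and Rps29 had 436, 454, 408 and 483. Rps4x, encoded on the X chromosome, differed by -0.39 at 24 h and -0.33 at 0 h.

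The members farthest below the family median were led by Rpl29, Rpl11, Rps6, Rpl13 and Rps24 at 24 h. Rps6, the substrate of S6 kinases downstream of mTOR, had 193 FPKM in KO cells at 24 h and 279 in WT cells at 24 h, and 178 in KO cells at 0 h and 236 in WT cells at 0 h, a difference of -0.53 and -0.40. Rpl13 differed by -0.52 at 24 h and -0.39 at 0 h, and Rps24 by -0.46 and -0.29. Rpl11, which with Rpl5 and 5S RNA binds MDM2, did not keep its place at 0 h. It had 81.5 FPKM in KO cells at 24 h, 124 in WT cells at 24 h, 82.1 in KO cells at 0 h and 83.5 in WT cells at 0 h, so that WT at 24 h alone stood above the rest. The 4 processed copies of Rpl11, intronless sequences elsewhere in the genome, summed to 166, 186, 171 and 173 FPKM in the same order of libraries. With their FPKM added, not weighed by length, Rpl11 differed by -0.33 at 24 h and -0.02 at 0 h. With copies added in this way, Rps6 differed by -0.52, Rpl13 by -0.58 and Rps24 by -0.43 at 24 h. Rpl5, the partner of Rpl11, had 84.7, 113, 85.4 and 114 FPKM and was lower in KO at both times, with differences of -0.41 and -0.42.

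The 19 members at least 1.2-fold lower at both times were Rpl5, Rpl6, Rpl7, Rpl13, Rpl17, Rpl23a, Rpl26, Rpl29, Rpl35a, Rpl36a and Rpl39 of the large subunit and Rps4x, Rps6, Rps7, Rps10, Rps12, Rps15a, Rps21 and Rps24 of the small subunit. Rpl23a, which lies at the mouth of the exit tunnel where nascent chains meet the signal recognition particle, had 329 FPKM in KO cells at 24 h, 442 in WT cells at 24 h, 314 in KO cells at 0 h and 391 in WT cells at 0 h. Rpl6 had 103 FPKM in KO cells at 24 h, 134 in WT cells at 24 h, 104 in KO cells at 0 h and 133 in WT cells at 0 h, so both genotypes kept their level between the times. Rps12 had 103, 135, 90.4 and 118 FPKM and Rps21 had 135, 168, 133 and 171 FPKM in the same libraries.

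At 0 h the farthest below were Rpl29, Rpl26, Rps10, Rps15a and Rpl5. Rpl26, which in human cells also binds the p53 mRNA, had 192 FPKM in KO cells at 24 h, 234 in WT cells at 24 h, 205 in KO cells at 0 h and 348 in WT cells at 0 h. WT at 0 h stood apart from the other 3 libraries. Rps10, a site of ubiquitination at collided ribosomes in human cells, had 87.5, 109, 81.4 and 119 FPKM. Rps15a had 30.7, 40.8, 30.5 and 42.2 FPKM, with both KO libraries below both WT libraries.

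A few members went the other way. Rps20, another site of collision-linked ubiquitination in human cells, had 45.3 FPKM in KO cells at 24 h and 35.3 in WT cells at 24 h, but 36.0 in KO cells at 0 h and 38.2 in WT cells at 0 h. It was the 1 member at least 1.2-fold higher in KO at 24 h, by 0.35. Its 1 processed copy, an intronless sequence elsewhere in the genome, had 41.2, 51.9, 51.2 and 61.1 FPKM in KO 24 h, WT 24 h, KO 0 h and WT 0 h cells. The plain sum of the FPKM of gene and copy differed by -0.01 at 24 h and -0.19 at 0 h. FPKM is scaled to length, and Rps20 has 4080 annotated exon bases. Such sums, here and below, do not weigh gene and copies by length. Whether the fragments of Rps20 and its copy together were higher in KO at 24 h was not tested. Rpl41, among the smallest proteins known, had 174, 153, 132 and 101 FPKM in KO 24 h, WT 24 h, KO 0 h and WT 0 h cells and was higher in KO by 0.18 and 0.38. Its 3 copies summed to 527, 512, 437 and 454 FPKM, and gene and copies together were higher in KO by 0.07 and 0.03. Rpl13a, which in human monocytes also serves in a complex that silences inflammatory mRNAs, was higher by 0.13 and 0.20, and Rps18 by 0.10 and 0.21. With copies added these were 0.15 and 0.22 for Rpl13a and 0.09 and 0.20 for Rps18. Rpl18 had 43.2, 43.1, 44.8 and 36.2 FPKM, and with its copies added it differed by -0.06 at 24 h and 0.10 at 0 h. Its exons overlap those of Sphk2, which had 17.8, 13.6, 23.8 and 13.2 FPKM in the same libraries. The exons of Rps18 overlap those of Vps52, which had 16.8, 14.4, 13.7 and 11.8 FPKM. The part of these overlaps in the Rpl18 and Rps18 values was not tested. In all, 39 members share exonic bases with another gene and 19 of them with one at 1 FPKM or more, and the sources used here do not say how such reads were split.

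Rpl29, a large subunit protein also known as a heparin-binding protein at the cell surface, had the largest difference of the family at both times. Its gene (ENSMUSG00000048758) lies at chr9:106429454-106431568 on the plus strand of GRCm38. It had 37.3 FPKM in KO cells at 24 h and 74.7 in WT cells at 24 h, and 33.7 in KO cells at 0 h and 95.5 in WT cells at 0 h, a log2 difference of -0.98 at 24 h and -1.48 at 0 h. Both KO libraries were below both WT libraries.

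Rpl29 also has processed copies, intronless sequences elsewhere in the genome that differ from it at few bases, and the most abundant of these went the other way. The 14 copies at 1 FPKM or more summed to 348 FPKM in KO cells at 24 h and 259 in WT cells at 24 h, and to 312 in KO cells at 0 h and 215 in WT cells at 0 h. Gm13841 at chr5:115801677-115802159 had 134, 95.8, 122 and 78.6 FPKM in KO 24 h, WT 24 h, KO 0 h and WT 0 h cells, and Gm8210 at chr1:43189156-43189638 had 133, 93.7, 119 and 75.5. Of 7 copies of Rpl29 at 5 FPKM or more, 5 were 1.2-fold higher in KO at both times. Of 192 copies of other members at that level, 1 was (Gm11478, named after its values were seen). Of all 14 copies 8 were lower in KO at each time, against 58.6% of all genes at 24 h and 59.5% at 0 h, so the higher sum is carried by the abundant ones. Gene and copies together gave 386 FPKM in KO cells at 24 h and 334 in WT cells at 24 h, and 346 in KO cells at 0 h and 310 in WT cells at 0 h. This plain sum of FPKM was higher in KO by 0.21 and 0.16, where the difference of Rpl29 alone was -0.98 and -1.48. The sum does not weigh by length. Rpl29 has 1126 annotated exon bases, and Gm13841 and Gm8210 are shorter, so 1 fragment can give more FPKM in a copy than in the gene. Whether the fragments of gene and copies together were higher in KO was not tested.

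The bases that tell Rpl29 from its copies are shown because the coding reads of these genes can be told apart only at such bases or at splice junctions. Over the 480 coding bases, counted from 1 at the A of the start codon, Gm13841 and Gm8210 each differ from Rpl29 by C72A, C300T and T423C. The changes C300T and T423C are shared by all 6 copies that could be laid on the coding sequence base by base. The stretches around these positions, from the transcripts of GENCODE M21, are given on the coding strand with the differing base in capitals.
Rpl29 position 72: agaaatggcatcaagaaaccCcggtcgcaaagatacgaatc
Gm13841 position 72: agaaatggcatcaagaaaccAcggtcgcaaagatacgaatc
Rpl29 position 300: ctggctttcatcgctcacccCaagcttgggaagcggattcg
Gm13841 position 300: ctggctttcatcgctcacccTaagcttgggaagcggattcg
Rpl29 position 423: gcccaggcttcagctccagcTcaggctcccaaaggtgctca
Gm13841 position 423: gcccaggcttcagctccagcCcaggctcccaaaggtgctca

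A coding fragment that covers no such position and no junction has the same bases in the gene and in these copies. The sources used here do not say how the authors assigned such fragments, and the part of this in the Rpl29 values was not tested. The copy Gm17669, named after its values were seen, had 0.01 FPKM in KO cells at 24 h, 5.67 in WT cells at 24 h, 0.07 in KO cells at 0 h and 4.14 in WT cells at 0 h. The labels give no strain for either genotype, so the loss of OGT and a sequence difference between the mice at Rpl29 or its copies cannot be told apart.

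**Figure D4:**
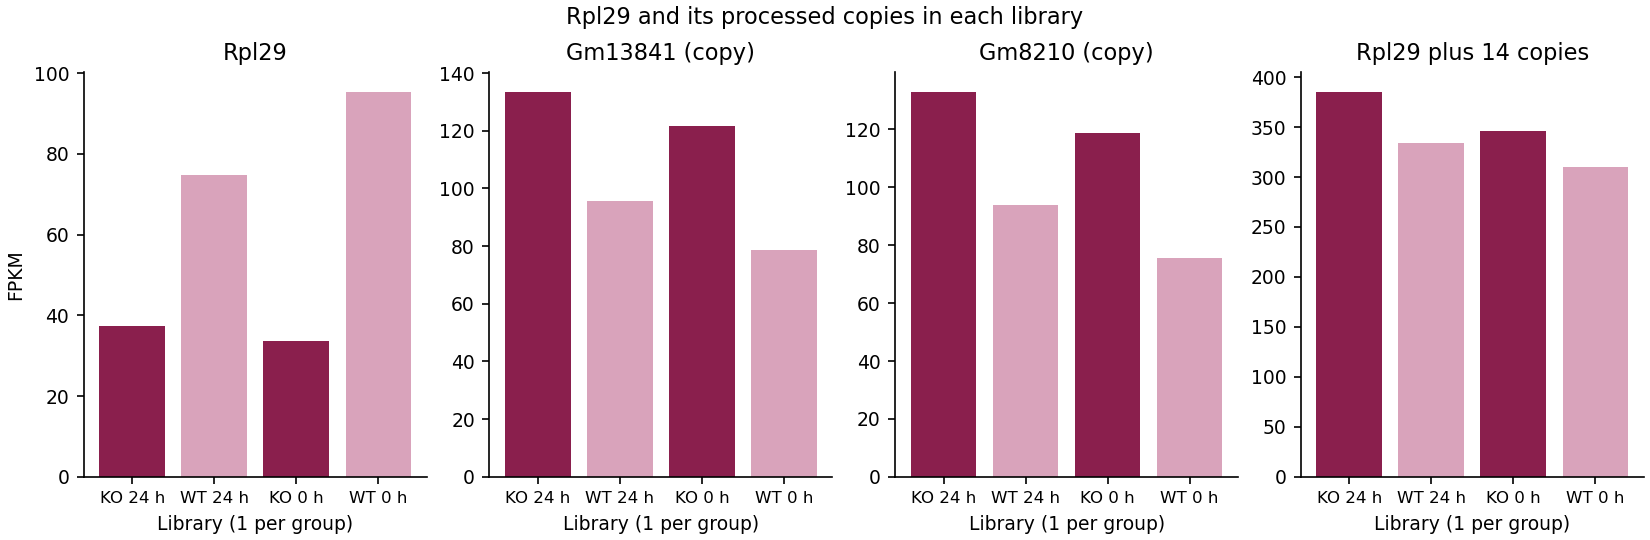
FPKM in each library, 1 bar per library, of Rpl29, of its copies Gm13841 and Gm8210, and of Rpl29 plus all 14 copies, with axes of different height that start at 0. KO bars are below WT bars for Rpl29 (37.3 and 74.7 at 24 h) and above them for both copies. They are also above them for the sum of FPKM, not weighed by length (386 and 334 at 24 h).

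Processed copies are common in the family, and their values matter for all members. There were 296 copies at 1 FPKM or more, of at least 90% identity to 1 of 74 members. They summed to 7859 FPKM in KO cells at 24 h and 9125 in WT cells at 24 h, and to 7622 in KO cells at 0 h and 8546 in WT cells at 0 h, or 50.9% to 53.4% of the members' sum. Of 199 copies at 5 FPKM or more, 170 were lower in KO at 24 h and 175 at 0 h, against 58.6% and 59.5% of all genes. With the FPKM of each member and its copies added, not weighed by length, the median differences were -0.27 at 24 h and -0.15 at 0 h. Then 75 and 67 of 82 were lower, again against 58.6% and 59.5% of all genes. Of the kept members, 8 matched no such copy, but among them Rps27 and Rps27rt match each other. The other 6 (Rpl7l1, Rpl8, Rplp2, Rps27l and Rps3 among them) were lower in KO at both times, as were 42.9% of all genes, with medians of -0.17 at 24 h and -0.15 at 0 h. These summed and copy-free values were added after the data had been seen.

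With IL-4, the family's level in KO cells moved little and in WT cells a little more. The median difference of 24 h against 0 h was 0.05 in KO cells and 0.16 in WT cells, where over all genes it was 0.03 and 0.02. In KO cells 13 of 82 members were 1.2-fold higher at 24 h, against 30.3% of all genes, and 6 were lower, against 26.8%. In WT cells 26 were 1.2-fold higher, against 29.7%, and 5 lower (Rpl26, Rpl29, Rps25, Rps27 and Rps9), against 26.9%. No member reached 2-fold in either genotype, where 5.16% of all genes in KO cells and 4.77% in WT cells were that much higher, and 5.99% and 6.26% that much lower. The responses in KO and WT had an r of 0.71 across members and 0.86 over all genes.

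Single members moved more than the median. Rps27l, a paralog of Rps27 and target of p53, had 77.4 FPKM in KO cells at 24 h against 47.1 at 0 h, and 86.7 in WT cells at 24 h against 54.4 at 0 h, a difference of 0.71 in KO and 0.66 in WT. Rpl8 was higher at 24 h by 0.53 in KO and 0.45 in WT. Rps9 was lower at 24 h, with 145 FPKM in KO cells against 236 at 0 h and 168 in WT cells against 214 at 0 h. Rps2 differed in size between the genotypes, with 193 FPKM in KO cells at 24 h against 141 at 0 h, and 237 in WT cells at 24 h against 138 at 0 h.

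The KO response minus the WT response had a median of -0.10 over members, with 64 of 82 below 0, against 49.1% of all genes, but only 11 past 1.2-fold lower, against 12.2%, and 3 higher (Rpl26, Rpl29 and Rps20), against 14.1%. None reached 2-fold, as did 1.17% of all genes lower and 1.27% higher. This difference uses all 4 libraries and is the KO against WT difference at 24 h minus that at 0 h, so it is not independent of them. The large subunit had a median of -0.11 and the small subunit -0.07. Among the lowest were Rpl11 at -0.57, Rps9 at -0.36, Rps2 at -0.33 and Rps26. Rps26 had 159.9 FPKM in KO cells at 24 h, 198 in WT cells at 24 h, 145 in KO cells at 0 h and 143 in WT cells at 0 h.

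Rps27 has a pair of paralogs in the family, Rps27rt and Rps27l. Over 252 coding bases Rps27rt is identical to Rps27, so reads from the coding part cannot tell them apart, and the split of FPKM between them rests on other bases and on the authors' assignment. Rps27 had 191 FPKM in KO cells at 24 h, 209 in WT cells at 24 h, 238 in KO cells at 0 h and 278 in WT cells at 0 h. Rps27rt had 67.6, 83.4, 91.1 and 97.4 FPKM in those libraries. Both were lower at 24 h than at 0 h in each genotype. Rps27l differs from Rps27 at 60 bases, or 76.2% identity, and was higher at 24 h in each. The coding sequences are shown for that contrast, with bases of Rps27l that differ from Rps27 in capitals.
Rps27 (chr3:90212522-90213651, minus strand): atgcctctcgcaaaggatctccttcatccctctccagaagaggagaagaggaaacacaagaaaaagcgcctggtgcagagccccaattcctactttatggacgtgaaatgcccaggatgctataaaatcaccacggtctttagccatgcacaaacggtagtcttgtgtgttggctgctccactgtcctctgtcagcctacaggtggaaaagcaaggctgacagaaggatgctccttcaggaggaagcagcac
Rps27l (chr9:66946086-66949516, plus strand): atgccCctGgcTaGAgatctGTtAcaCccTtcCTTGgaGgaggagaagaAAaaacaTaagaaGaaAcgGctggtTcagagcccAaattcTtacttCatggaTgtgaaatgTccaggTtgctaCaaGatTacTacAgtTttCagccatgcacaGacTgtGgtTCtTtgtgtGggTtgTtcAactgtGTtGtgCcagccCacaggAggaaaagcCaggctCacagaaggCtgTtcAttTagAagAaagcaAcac

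The other kept paralogs are Rpl22l1, whose levels are given above, Rpl36al and Rpl7l1, with coding identities of 67.7% to Rpl22, 87.7% to Rpl36a and 55.4% to Rpl7. Rpl36al had 71.3 FPKM in KO cells at 24 h, 80.6 in WT cells at 24 h, 61.0 in KO cells at 0 h and 60.7 in WT cells at 0 h. Rpl7l1 had 32.6, 35.7, 29.4 and 30.8 FPKM. Rpl36al and Rpl7l1 were lower in KO at 24 h.

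A run of at least 5 C or T bases that starts with C within 5 bases of the annotated start was found in 30 of the 65 members with a promoter in RefSeq (GRCm38.p6), or 46.2%, against 21.2% of 27018 genes. A match is a description and not a proven start. A member without a match may still begin with a run where the annotated start is off, so the groups with and without it may be mixed. The median KO against WT difference was -0.29 for members with the run and -0.27 for those without at 24 h, and -0.13 and -0.15 at 0 h, so members with and without it had like medians. The 7-base motif CCGGAAG of ETS factors was in 40% of members against 9.93% of genes, AAGATGG of YY1 in 15.4% against 7.28%, and GGGCGG of Sp1 in 61.5% against 38.2%, each on either strand of the window from 250 bases before to 50 after the start. Of 69 mitochondrial ribosomal proteins, 37.7% had the ETS motif, 18.8% the YY1 motif, 49.3% the Sp1 motif and 24.6% the run. The ETS and YY1 motifs were thus not particular to the cytosolic family. Windows of 30 bases before and 20 after the start are shown with the run in capitals. They are of members lower in KO with the run, of 2 higher in KO with it, and of Rpl11, which has none by this rule.
Rps6 (chr4:86857348-86857397, minus strand): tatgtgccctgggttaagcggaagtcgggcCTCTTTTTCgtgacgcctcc
Rps15a (chr7:118116128-118116177, minus strand): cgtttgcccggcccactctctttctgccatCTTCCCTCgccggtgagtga
Rps10 (chr17:27635225-27635274, minus strand): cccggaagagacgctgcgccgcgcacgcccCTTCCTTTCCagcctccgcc
Rpl13a (chr7:45128726-45128775, minus strand): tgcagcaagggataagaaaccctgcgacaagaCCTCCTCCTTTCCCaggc
Rps18 (chr17:33955646-33955695, minus strand): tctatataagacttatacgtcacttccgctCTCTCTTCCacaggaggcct
Rpl11 (chr4:136053374-136053423, minus strand): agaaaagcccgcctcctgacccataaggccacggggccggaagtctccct

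Other genes of the pathway were set beside the family. Of 24 translation factors and other genes with TOP mRNAs, 21 were lower in KO at 24 h (median -0.16), against 58.6% of all genes, and 19 at 0 h (median -0.10), against 59.5%. Eef1g, of the elongation factor complex, had 122 FPKM in KO cells at 24 h, 173 in WT cells at 24 h, 63.0 in KO cells at 0 h and 88.1 in WT cells at 0 h. For the 3 ribosomal proteins under other names the median was -0.04 at 24 h and 0.14 at 0 h. Of these, Fau had 335 FPKM in KO cells at 24 h, 344 in WT cells at 24 h, 405 in KO cells at 0 h and 368 in WT cells at 0 h, and Rack1 had 100.5, 108, 91.8 and 96.3 FPKM.

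Factors that build the ribosome differed in another way. Of 48, 35 were lower in KO at 24 h (72.9%, median -0.11), against 58.6% of all genes. At 0 h 25 of 47 were lower (53.2%, median -0.01), which is below the 59.5% of all genes. Against 0 h, 38 of 48 in KO and 41 of 48 in WT were 1.2-fold higher at 24 h, against 30.3% and 29.7% of all genes, with medians of 0.57 and 0.60, where the ribosomal proteins had 0.05 and 0.16. Nop16, a nucleolar protein, had 25.3 FPKM in KO cells at 24 h and 17.4 in WT cells at 24 h, and 7.62 in KO cells at 0 h and 4.87 in WT cells at 0 h. Npm1, a nucleolar chaperone, had 81.4, 111, 83.5 and 89.0 FPKM. Myc, a driver of ribosome synthesis, had 16.6, 21.8, 1.55 and 1.98 FPKM. It was higher at 24 h by 2.78 in KO and 2.94 in WT, where the 29 regulators as a list had medians of 0.10 and 0.06. For KO against WT, Myc differed by -0.38 at 24 h and -0.23 at 0 h, and the list had medians of 0.01 and 0.00.

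Among importers and chaperones of ribosomal proteins, Tnpo1, a nuclear import receptor, had 8.17 FPKM in KO cells at 24 h, 18.5 in WT cells at 24 h, 15.4 in KO cells at 0 h and 17.2 in WT cells at 0 h. KO at 24 h stood alone. The 11 genes of that list had a median of -0.10 at 24 h and -0.13 at 0 h. The 78 mitochondrial ribosomal proteins had a median of -0.14 at 24 h with 59 lower (75.6%, against 58.6% of all genes), and of -0.02 at 0 h with 41 lower (52.6%, against 59.5%). The 15 of RNA polymerase I and its factors had -0.08 and -0.01.

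**Figure D5:**
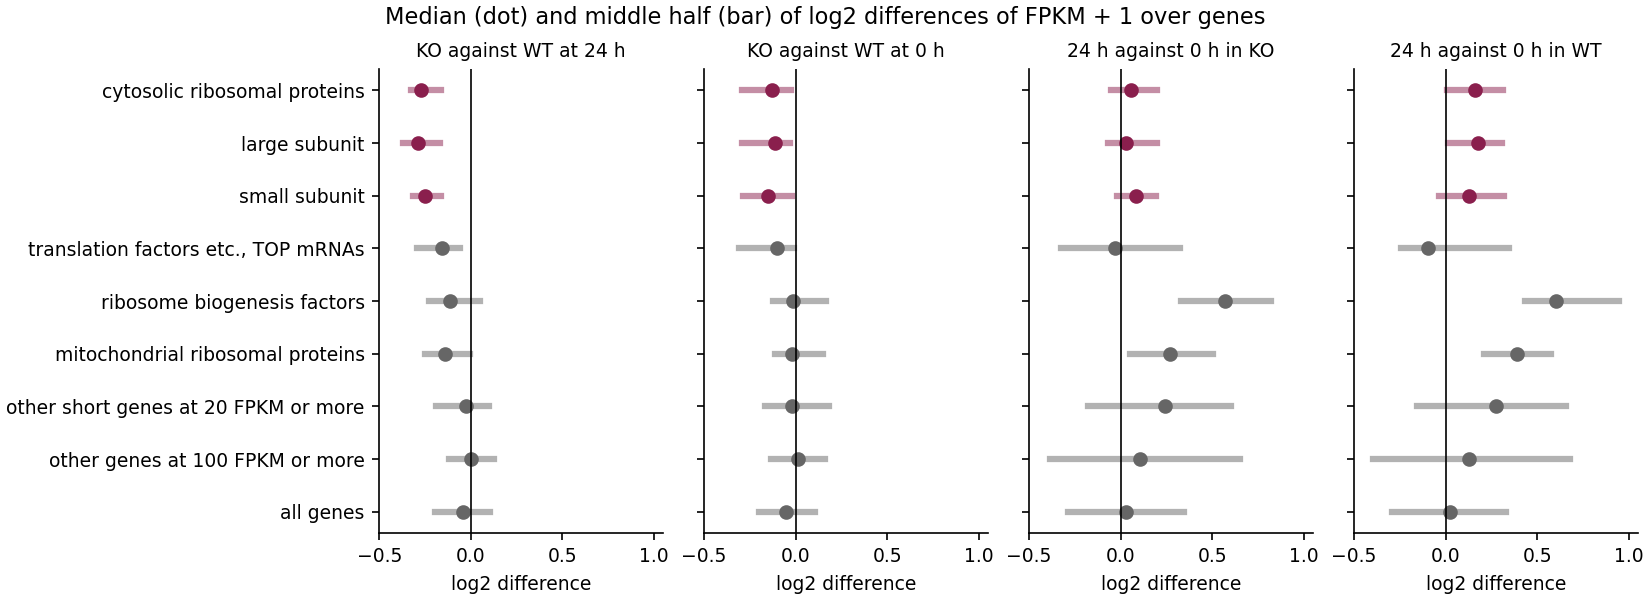
Median (dot) and range between the quartiles (bar) of the log2 differences over the genes of each list, in 4 panels for the 4 comparisons. The cytosolic ribosomal proteins stand at -0.27 and -0.13 for KO against WT at 24 h and 0 h, and ribosome biogenesis at 0.57 and 0.60 for 24 h against 0 h in KO and in WT.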

How the data were processed

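The authors deposited 1 table of gene values, read as FPKM because the column totals differ, between 338704 and 353093, and no raw counts were used. STAR and StringTie on GRCm38 (mm10) are named per the submitters' processing notes, and the sources used here do not give versions, annotation or strandedness. Symbols came from GENCODE M21 for 52403 of 52550 genes. A difference is the log2 ratio of FPKM + 1, KO over WT or 24 h over 0 h, for genes that reach 1 FPKM in either library compared, so it understates differences of low genes. With 1 library per group, counts and medians are given beside those of all genes kept, with no test. Processed copies were found by BLASTN 2.17.0 at 90% identity or more over at least 50% of the shorter sequence. Depth was estimated from genes with 1 exon of 800 bases or more as the commonest value multiplied by exon bases (search range 40 to 60), taken as 1 fragment.

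Members and lists were chosen with earlier results of these data known. Named members were the 5 highest of each subunit, the 5 farthest above and below the family median in the KO against WT comparisons and the difference of responses, the paralogs, the low members and the 3 largest differences of each related list. A few genes that the rule names are not reported here, though counts and medians include them. Coding bases were compared in place of proteins. The calculations were tested on simulated data. Alternatives were other pseudocounts, filters, scalings, copies summed and paralogs left out. Python 3.11.15, numpy 2.4.6, pandas 2.3.3, scipy 1.17.1, Biopython 1.88 and matplotlib 3.10.9 were used.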

Additional observations from a re-analysis of the deposited data

How the results depend on the processing

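Over 11 alternatives, the median KO against WT difference lay between -0.29 and -0.17 at 24 h and between -0.15 and -0.05 at 0 h, and none changed direction. The median of 24 h against 0 h lay between 0.01 and 0.17 in KO and between 0.11 and 0.24 in WT, and the KO response minus the WT response between -0.11 and -0.06. Restricting the family was chosen after seeing the data. With the 8 members that match no processed copy, the 24 h median was -0.17, and members lower numbered 8 at 24 h, 8 at 0 h, 2 in KO and 2 in WT for 24 h against 0 h, and 5 for the difference of responses. Without Rps27 and Rps27rt, which match each other, 6 were left: the median was -0.17 for KO against WT at 24 h and 0.17 for 24 h against 0 h in KO, and members lower numbered 6 at 24 h, 6 at 0 h, 0 in KO and 0 in WT for 24 h against 0 h, and 4 for the difference of responses. Fewer genes enter these counts, and the shares differed too. For KO against WT, 91.5% of the 82 were lower at 24 h and 78.0% at 0 h. Of the 8 and of the 6, 100% were lower at each time. For 24 h against 0 h in KO, 37.8% of the 82, 25% of the 8 and 0% of the 6 were lower. In WT these were 23.2%, 25% and 0%. For the difference of responses they were 78.0%, 62.5% and 66.7%. Over all genes the shares in this order were 58.6%, 59.5%, 47.3%, 48.0% and 49.1%. The family's share with libraries rescaled to a common total without mitochondrial, small and highest genes was 5.91% in KO at 24 h, 6.91% in WT at 24 h, 5.75% in KO at 0 h and 6.40% in WT at 0 h. With 289 named pseudogenes summed in, it was 5.22%, 6.22%, 5.16% and 5.81%. No paired analysis was possible because each group has 1 library and no replicate numbers. The spread between cultures is unknown, so differences of the size seen here cannot be told from it.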

Other observations

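Rps6ka3 and Rps6ka1, kinases left out of the family by their names and named here after their values were seen, were lower in KO at both times. Rps6ka3 had 13.5 FPKM in KO cells at 24 h, 18.7 in WT cells at 24 h, 7.85 in KO cells at 0 h and 16.3 in WT cells at 0 h. Rps6ka1 had 21.3, 27.3, 30.1 and 37.8 FPKM in those libraries. The gene for the S6 kinase Rps6kb1 had 4.29, 3.36, 3.99 and 3.98 FPKM. Rps6kb2, for the other S6 kinase, had 4.22, 5.28, 5.40 and 5.23 FPKM, so at 24 h these genes differed in opposite directions.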
